A study of Mus musculus with 12 samples.

Results

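The comparison described here is that of culture medium in E14 mouse embryonic stem cells that carried a scrambled control shRNA (shScr): 3 libraries from cells in 2i medium against 3 libraries from cells in serum medium, taken by their column names from the 12 libraries of the study. E14 is an established embryonic stem cell line of 129/Ola background. All groups were grown on gelatin without feeder cells, received a lentiviral pLKO.1 shRNA vector and spent 3 days under puromycin before collection. Serum medium held fetal bovine serum and LIF, and the submitters call these cells primed. The 2i medium was serum-free and held N2, B27, LIF, PD0325901, which inhibits MEK, and CHIR99021, which inhibits GSK3, and the submitters call these cells naive. The other 6 libraries carried an shRNA against Setdb1 in the same media. They give a medium difference to set beside the one in control cells. They also enter the filter on low values and the estimate of spread in the main test. Every library therefore came from transduced and drug-selected cells, and no untransduced cells are compared here. The media differ in basal medium, serum and supplements as well as in both inhibitors, so the effects of these components cannot be told apart. The labels do not say whether replicates 1 to 3 were separate cultures, so the spread behind each p-value is that of these libraries and may be technical.

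Embryonic stem cells keep their identity through a network of transcription factors built around OCT4, SOX2 and NANOG, with LIF acting through STAT3. FGF signalling through MEK and ERK pushes the cells towards differentiation, and MEK inhibition blocks that signal. GSK3 normally marks beta-catenin for destruction, so GSK3 inhibition raises beta-catenin and relieves the repression that TCF3 places on pluripotency genes. Cells in 2i are known for a more even expression of naive factors than cells in serum, for low DNA methylation and for a low level of early lineage transcripts.

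The libraries held 9900012 to 13013715 gene reads in serum and 9903046 to 15509401 in 2i, and 5186701 to 8628544 and 4407665 to 7630883 repeat reads respectively. In both tables the first principal component separated the media, with 48.4% of the variance of the 6 control libraries for genes and 53.3% for repeat families. Serum replicate 3 stood apart from the other 5 libraries on the second component of the gene table, at -56.74 against -11.72 to 27.09. Structural RNA and tRNA repeats took 48.3% and 64.6% of repeat reads in replicate 3 of serum and of 2i, and 24.2 to 38.9% in the other 4 libraries. Results that rest on replicate 3 or on any other single library are marked as such. Setdb1, the target of the shRNA in the other groups, was at 2959, 2237 and 1587 normalised reads in serum replicates 1 to 3 and at 3607, 2724 and 2253 in 2i, which overlap. It was at 340.1 to 837.0 in the 6 libraries with the shRNA against it.

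The embryonic stem cell label fitted the markers. All 23 naive and 13 core pluripotency genes listed were detected, and Pou5f1, which encodes OCT4, was at 12080 to 15170 normalised reads in serum and 7373 to 12250 in 2i. Of 30 defining markers of trophoblast, endoderm, mesoderm, neural cells and fibroblasts, 14 lay below the filter on low values, with at most 19 reads in any control library. Elf5, Mesp1, Neurog2, Col3a1 and S100a4 had 0 reads in all 6. The summed normalised reads of the listed markers were 2536 to 3892 in serum and 1272 to 1498 in 2i for trophoblast, 11970 to 15320 and 16530 to 19000 for endoderm, 318.6 to 815.2 and 362.1 to 548.1 for mesoderm, 1574 to 1904 and 1460 to 2276 for neural cells, and 5470 to 6413 and 8629 to 16530 for fibroblasts. The endoderm sum was higher in 2i, but the list median was -0.42 on the log2 scale. Its defining markers had fewer reads in the 3 libraries of 2i than in those of serum. In serum and 2i these were 37 and 9 for Gata4, 88 and 10 for Gata6, and 17 and 0 for Sox17. They were 36 and 4 for Sox7, 21 and 1 for Foxa2, 93 and 7 for Dab2, and 156 and 134 for Pdgfra. For Sox17, Foxa2 and Dab2 most reads came from 1 library (17, 18 and 72), and none of those tested passed. The part of any of these other cell types in the results was not tested. In bulk RNA, fewer cells of a type and less RNA per cell cannot be told apart.

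Of 14487 genes tested, 524 (3.62%) passed an adjusted p of 0.05, 251 higher in 2i (1.73%) and 273 lower (1.88%). The test was limma on the deposited log2-scale values with Benjamini-Hochberg adjustment, and every adjusted p below comes from it. Its estimate of spread used all 12 libraries. A fit on the 6 control libraries alone gave 494 genes, with 407 of the 524 among them. The 3 libraries of each medium did not overlap for 3455 genes (23.8%). The median difference over all tested genes was -0.05 on the log2 scale. The count fell to between 171 and 466 when 1 control library was left out, with the lowest count without 2i replicate 3, and 134 genes passed in all 6 of these fits. Only 19 genes passed with replicate 2 of both media left out, 151 without replicate 1 of both and 144 without replicate 3 of both.

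Trpm1, a cation channel gene known from pigment cells and retinal bipolar cells, showed the largest rise. It was at 47.8, 65.7 and 124 normalised reads in serum replicates 1 to 3 and at 2899, 3068 and 6422 in 2i, 52.2-fold higher, with a log2 difference of 5.09 ± 0.50 (SE) and an adjusted p of 0.00022. Every 2i library lay far above every serum library. Dmgdh, the mitochondrial dimethylglycine dehydrogenase of choline breakdown, went from 9.77, 9.77 and 12.8 to 610, 394 and 453, 45.0-fold higher (adjusted p = 0.00022). Nkx1-2, a homeobox gene, had 12 reads in all in the serum libraries against 1688 in 2i, a log2 difference of 4.04 ± 0.45 (adjusted p = 0.000582). Jakmip1, whose product binds microtubules, went from 35.8, 75.5 and 191 to 928, 907 and 1255, 10.2-fold higher (adjusted p = 0.00224) and 18.5-fold without serum replicate 3. The 15 largest rises without overlap also held Crxos1, Sp5, Scd1, Aqp3, Calr4, Gpr126, Ccdc141, 2310043M15Rik, Car8 and Sh2d4b, with log2 differences of 2.81 to 4.35. Of the 15, 13 passed whichever control library was left out. Aqp3 did not pass without serum replicate 1 (adjusted p = 0.0511) or 2i replicate 3 (0.0668). Car8 did not pass without serum replicate 1 (0.0605) or 2 (0.126) or 2i replicate 2 (0.0914) or 3 (0.146). Reads of Crxos1, which lies on the strand opposite Crx, may not be told apart from those of its neighbour, since the use of strand in counting is not given in the sources used here.

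**Figure D1:**
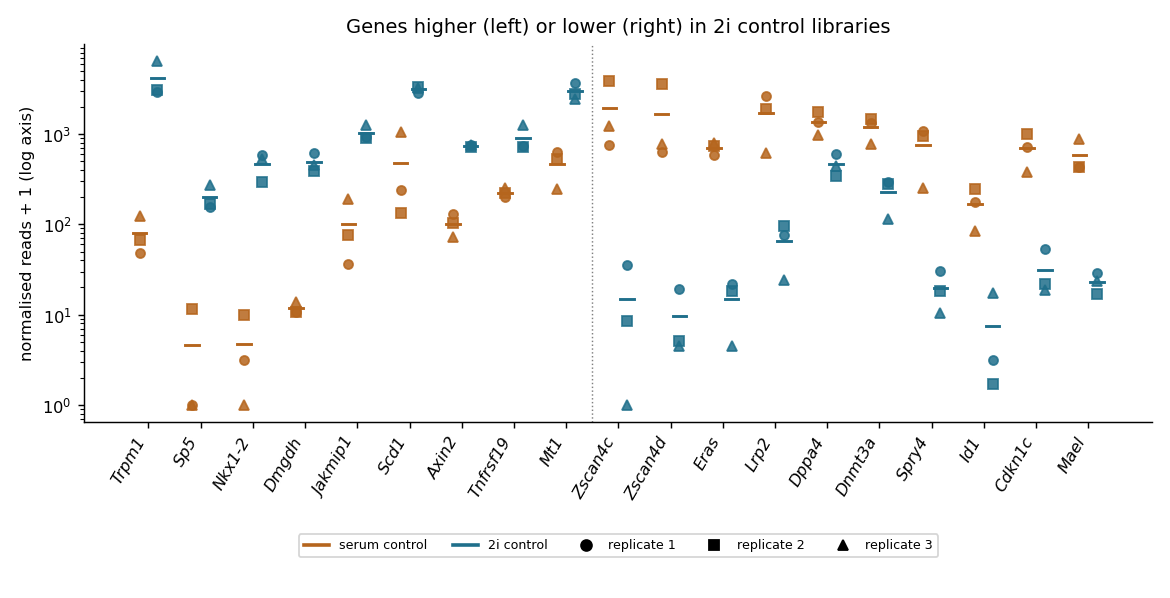
Normalised reads plus 1 (log axis) of 9 genes that rose and 10 that fell in 2i. Each point is 1 control library, with serum in brown and 2i in blue, circles, squares and triangles for replicates 1, 2 and 3, and bars for the mean of 3. No serum library overlaps a 2i library for these genes, with Trpm1 at 47.8 to 124 in serum and 2899 to 6422 in 2i, and Eras at 584 to 792 in serum and 3.52 to 20.9 in 2i.

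Direct targets of beta-catenin that serve as feedback or target genes of Wnt signalling were among the rises, while most of the list did not pass. Of 22 tested Wnt and beta-catenin response genes, 4 were higher and 0 lower, with a list median of 0.06 against -0.05 over all genes. The count was 2 with voom, 2 with a stricter filter and 1 without replicate 3 of both media. Axin2, a feedback inhibitor of the pathway, was at 129, 101 and 70.6 normalised reads in serum and at 749, 726 and 756 in 2i, 7.41-fold higher with a log2 difference of 2.51 ± 0.43 (adjusted p = 0.00501). The 2i libraries lay close together and well above all serum libraries. Sp5, a transcription factor gene induced by Wnt, had 12 reads in all in serum, all of them in replicate 2, against 689 in 2i, a log2 difference of 3.09 ± 0.53 (adjusted p = 0.00501, and 0.0591 with voom). T, the mesoderm factor brachyury and also a Wnt target, had 10 reads in serum, again all in replicate 2, against 358 in 2i, a difference of 2.38 ± 0.46 (adjusted p = 0.00903, 0.0588 without 2i replicate 3, and 0.0607 with voom). Tnfrsf19, a receptor gene of the TNF family, went from 199, 223 and 249 to 734, 719 and 1276, 4.07-fold higher (adjusted p = 0.0039). Lef1, which encodes a partner of beta-catenin, was at 51.0, 165 and 0 in serum and 59.9, 53.1 and 50.5 in 2i, which overlap (adjusted p = 0.897). Tcf7, the gene of another such partner, was at 183 to 195 in serum and 237 to 379 in 2i (adjusted p = 0.421). Notum, a secreted Wnt inhibitor, was at 29.9 to 211 and 232 to 446 (adjusted p = 0.277), and Nkd1, a further inhibitor, at 18.4 to 25.7 and 15.9 to 24.6 (adjusted p = 0.987).

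Of the Wnt list, 2 genes held the TCF/LEF letters ATCAAAG, on either strand, between 250 bases before and 50 after their RefSeq start, and both were among the 4 that rose. Promoter windows were found for 21 listed genes. Over all 32851 windows of this length, 3.73% held these letters, and a match is a description and not a binding site. The 2 windows are printed 5′ to 3′ on the strand of the gene, with the matching letters in capitals, from RefSeq on GRCm38.p6. The Sp5 window is chr2:70474673-70474972 on the plus strand, with the match on the opposite strand of the gene from 104 bases before the start. The Tnfrsf19 window is chr14:61037938-61038237 on the minus strand, with the match on the strand of the gene from 202 bases before the start.
Sp5: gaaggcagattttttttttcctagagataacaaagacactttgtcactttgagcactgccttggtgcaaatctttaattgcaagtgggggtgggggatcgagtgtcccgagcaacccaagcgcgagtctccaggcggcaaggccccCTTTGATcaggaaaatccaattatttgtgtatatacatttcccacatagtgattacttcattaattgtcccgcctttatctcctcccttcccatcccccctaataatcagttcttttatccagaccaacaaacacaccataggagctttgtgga
Tnfrsf19: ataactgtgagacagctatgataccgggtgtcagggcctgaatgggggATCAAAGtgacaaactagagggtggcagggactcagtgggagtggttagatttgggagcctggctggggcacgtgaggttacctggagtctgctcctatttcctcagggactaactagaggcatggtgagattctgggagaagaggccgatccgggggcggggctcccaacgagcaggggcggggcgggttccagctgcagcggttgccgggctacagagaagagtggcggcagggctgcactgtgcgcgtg
The Axin2 window held no match to these letters. Of the 19 cholesterol synthesis genes with a window, 0 held the SREBP letters TCACNCCAC, found in 1.24% of all windows, and of the 21 MEK-ERK response genes with one, 0 held the ETS letters CCGGAAG, found in 8.86%. That says only that these letters are not in these windows.

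Genes that ERK signalling induces were lower as a group median, though few passed singly. Of 28 tested MEK-ERK response genes, 0 were higher and 3 lower, and the list median was -0.84 against -0.05 over all genes. Spry4, a feedback inhibitor of receptor tyrosine kinase signalling, was at 1081, 954 and 250 normalised reads in serum and at 29.6, 17.2 and 9.39 in 2i, 40.6-fold lower with a log2 difference of -3.72 ± 0.71 (adjusted p = 0.00903). Serum replicate 3 was the lowest of its group but still far above the highest 2i library. Dusp5, a phosphatase gene that acts on ERK, went from 70.6, 50.6 and 27.8 to 4.33, 6.90 and 0, 13.3-fold lower (adjusted p = 0.0303), and 22.9-fold lower without 2i replicate 2. Etv4, an ETS transcription factor gene, went from 268, 252 and 322 to 13, 77.9 and 124, 3.91-fold lower (adjusted p = 0.0407), and 6.17-fold lower without 2i replicate 3. None of these calls held against the loss of every library: the adjusted p rose to 0.0502 and 0.0586 for Spry4 without serum replicates 1 and 2, to 0.057 to 0.161 for Dusp5 without any library but serum replicate 3, and to 0.0825 to 0.136 for Etv4 without any but 2i replicate 3. Dusp6, the phosphatase gene often read as a measure of ERK activity, was at 1068, 795 and 252 in serum and 246, 182 and 47.0 in 2i, without overlap but with an adjusted p of 0.0966. Dusp4 was at 61.3 to 91.2 and 2.35 to 13.1 (adjusted p = 0.0852), and Spry2 at 333 to 538 and 131 to 254 (adjusted p = 0.237). Etv5, a close relative of Etv4, overlapped at 1479 to 2659 in serum and 1698 to 2578 in 2i (adjusted p = 0.968), as did the immediate early gene Fos at 18.7 to 76.0 and 13.7 to 42.2 (adjusted p = 0.957).

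No naive pluripotency gene passed the limma test: of 23, 0 were higher and 0 lower, with a median of 0.25 and 17 positive differences. The count was 0 with voom on whole reads and 1 in a fit on the 6 control libraries alone. With the replicate number added to the fit as a block, 4 passed, 3 higher and 1 lower. The naive factor gene Nanog was at 3363, 3610 and 5751 normalised reads in serum and 4815, 5854 and 4229 in 2i (adjusted p = 0.814). Esrrb, which encodes an orphan nuclear receptor, was at 2472 to 3704 and 3249 to 5556 (adjusted p = 0.54), and Klf4 at 840 to 1800 and 1525 to 2201 (adjusted p = 0.305). The media overlapped for each of these 3. They did not overlap for Tfcp2l1, listed as Tcfcp2l1 and coding for a target of LIF signalling, at 5916, 2851 and 5955 against 10720, 14280 and 7891, 2.23-fold higher but with an adjusted p of 0.18. Prdm14, which represses FGF signalling genes and Dnmt3b, was at 132, 142 and 264 against 385, 466 and 291, 2.12-fold higher with an adjusted p of 0.123. Zfp42, the marker REX1, was at 8954 to 13220 and 8388 to 10560 (adjusted p = 0.717).

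In the core pluripotency list 2 of 13 genes passed, both lower, with a list median of -0.66. Both encode paired SAP-domain proteins that lie side by side in the genome and bind chromatin in early embryos. Dppa2 was at 994, 1604 and 696 in serum and 296, 139 and 75.1 in 2i, 6.45-fold lower with a log2 difference of -2.50 ± 0.46 (adjusted p = 0.00769, and 0.0543 without serum replicate 2). Its fold was 10.2 without 2i replicate 1. Dppa4 was at 1346, 1771 and 972 and at 603, 339 and 439, 2.96-fold lower (adjusted p = 0.0114), and it did not pass without serum replicate 2 (0.0707) or 2i replicate 2 (0.0622) or 3 (0.0571). Pou5f1 overlapped (adjusted p = 0.529). Sox2 did not overlap, at 5753 to 6409 in serum and 6841 to 8034 in 2i, and was 1.25-fold higher with an adjusted p of 0.665. Eras, which encodes a RAS protein of embryonic stem cells that is active without a signal, was at 584, 734 and 792 in serum and 20.9, 17.2 and 3.52 in 2i. It was 50.6-fold lower, with a log2 difference of -4.02 ± 0.51 (adjusted p = 0.00109), and it passed whichever control library was left out.

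Primed and early post-implantation epiblast genes had a median of -0.70, with 1 of 20 higher and 1 lower. The gene that was higher was T, given above with the Wnt targets. The gene that was lower was Dnmt3a, a de novo DNA methyltransferase gene, at 1335, 1473 and 780 in serum and 293, 281 and 114 in 2i. It was 5.21-fold lower, with a log2 difference of -2.23 ± 0.46 (adjusted p = 0.0144), and did not pass without serum replicate 1 (0.0596) or 2 (0.0766) or 2i replicate 3 (0.087). Pou3f1, which encodes the epiblast factor OCT6, was at 39.1, 61.3 and 42.8 and at 3.61, 3.45 and 0, without overlap and with an adjusted p of 0.109. Otx2, a factor of the exit from naive pluripotency, overlapped at 70.6 to 609 and 71.5 to 420 (adjusted p = 0.866). Of 21 DNA methylation and hydroxymethylation genes, 0 were higher and 2 lower, with a median of -0.31. The other of these 2 was Gadd45a, a DNA damage response gene linked to demethylation, at 543, 1026 and 539 and at 206, 164 and 248, 3.41-fold lower (adjusted p = 0.021), and it did not pass without serum replicate 2 (0.108) or 2i replicate 1 (0.0568), 2 (0.0872) or 3 (0.0541). Dnmt3b was at 3818, 3836 and 866 in serum and 1602, 1188 and 524 in 2i (adjusted p = 0.482). Dnmt3l, the gene of the catalytically inactive cofactor of DNMT3A and DNMT3B, was at 2463, 3320 and 543 and at 1154, 830 and 64.5 (adjusted p = 0.394). For both genes serum replicate 3 lay below 2i replicates 1 and 2, and the media overlapped. Uhrf1, which brings the maintenance methyltransferase to replicated DNA, was at 1629 to 2749 and 2944 to 3939, without overlap (adjusted p = 0.347).

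Genes of BMP signalling moved in both directions, with 2 of 16 higher, 3 lower and a list median of -0.59. Id1, a target of BMP and an inhibitor of basic helix-loop-helix factors, was at 175, 245 and 83.4 in serum and 2.17, 0.690 and 16.4 in 2i. It was 26.1-fold lower, with a log2 difference of -2.53 ± 0.49 (adjusted p = 0.00923), and 118-fold lower without 2i replicate 3. It did not pass without serum replicate 2 (0.0609) or 2i replicate 2 (0.0513). Its relative Id2 was 7.64-fold lower (adjusted p = 0.0101), at 130, 366 and 133 and at 12.3, 40.7 and 29.3. Without serum replicate 2 it was 4.79-fold lower and did not pass (0.0592). Dusp9, a phosphatase gene that BMP induces and that dampens ERK, went from 817, 1026 and 1939 to 62.1, 105 and 42.2, 18.1-fold lower (adjusted p = 0.00115). Id4, by contrast, went from 31.5, 32.0 and 34.2 to 308, 440 and 595, 13.8-fold higher with a log2 difference of 2.78 ± 0.36 (adjusted p = 0.00115). Dusp9 and Id4 passed whichever library was left out.

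In the TGF-beta and Nodal list 3 of 19 genes were higher and 2 lower. Inhbb, which encodes an activin subunit, was at 442, 291 and 676 in serum and 29.6, 2.07 and 7.04 in 2i, 36.4-fold lower with a log2 difference of -3.53 ± 0.47 (adjusted p = 0.00138), and 103-fold lower without 2i replicate 1. Fst, the gene of the activin antagonist follistatin, went the other way, from 79.2, 49.8 and 29.9 to 386, 249 and 349, 6.19-fold higher (adjusted p = 0.00483). Both passed whichever library was left out. Lefty2, a secreted Nodal inhibitor, was at 333, 548 and 244 and at 1881, 2108 and 1874, 5.21-fold higher with an adjusted p of 0.046, which was 0.0837 to 0.136 in the 6 fits without 1 control library. Among 16 Notch genes 0 were higher and 2 lower. Dll1, a Notch ligand gene, was at 65.1, 195 and 68.4 in serum and 0, 0.690 and 0 in 2i (adjusted p = 0.0039). Rbpj, the DNA-binding partner of cleaved Notch, was at 3948, 2775 and 3223 and at 1140, 1639 and 908, 2.70-fold lower with an adjusted p of 0.0395, which was 0.0535 to 0.19 in the 6 fits without 1 library. In the list of FGF ligands and receptors 1 of 16 passed: Fgf15, at 53.2, 105 and 108 in serum and 0, 0 and 2.35 in 2i (adjusted p = 0.00521).

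Of 21 fatty acid synthesis genes 7 were higher and 0 lower, and of 26 cholesterol synthesis genes 1 was higher and 0 lower, with list medians of 0.47 and 0.55. In the cholesterol list 24 of 26 differences were positive, and the libraries did not overlap for 11 genes, all of them higher in 2i. Over all 14487 tested genes 1.73% were higher, and 1597 did not overlap and were higher. Scd1, a stearoyl-CoA desaturase gene, was at 242, 132 and 1059 in serum and 2843, 3296 and 3261 in 2i, 6.56-fold higher with a log2 difference of 3.07 ± 0.50 (adjusted p = 0.004), and 16.8-fold higher without serum replicate 3. Scd2, its paralogue, went from 1360, 1141 and 2761 to 7908, 12720 and 6310, 5.12-fold higher (adjusted p = 0.00483). Srebf1, the gene of the transcription factor SREBP1 that drives this pathway, was at 175, 176 and 180 and at 433, 678 and 459, 2.96-fold higher (adjusted p = 0.0183). Acsl3, which activates fatty acids, was 3.87-fold higher (adjusted p = 0.0134), the desaturase genes Fads2 and Fads1 were 4.11-fold and 2.48-fold higher (0.0155 and 0.0473), and malic enzyme Me1 was 2.64-fold higher (0.0228). Fdft1, squalene synthase, was 2.17-fold higher, at 885, 1103 and 1332 and at 2658, 2072 and 2461 (adjusted p = 0.0382). Scd1 and Scd2 passed whichever library was left out. The others did not: the adjusted p reached 0.0913 for Srebf1 and 0.0958 for Me1 without 2i replicate 2, 0.079 for Acsl3 without 2i replicate 3, 0.0801 for Fads2 and 0.18 for Fads1 without serum replicate 2, and 0.159 for Fdft1 without serum replicate 1. Across these fits the fatty acid count was 2 to 6, with 2 without replicate 2 of serum or of 2i and 3 without 2i replicate 3. The cholesterol count was 3 without serum replicate 3 and 0 in the other 5 fits.

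The metallothionein genes Mt1 and Mt2, whose products bind zinc and copper, both rose. Mt1 was at 633, 530 and 244 in serum and 3668, 2804 and 2422 in 2i, 6.32-fold higher (adjusted p = 0.00749), and Mt2 at 1104, 1063 and 836 and at 4206, 3770 and 3329, 3.77-fold higher (adjusted p = 0.00844). Sepp1, which encodes the selenium carrier selenoprotein P, fell from 157, 156 and 258 to 19.5, 8.28 and 8.22, 15.8-fold lower (adjusted p = 0.0023). These 3 passed whichever library was left out. In the list of 21 metallothionein, iron and selenium genes 3 were higher and 2 lower. Lrp2, which encodes the endocytic receptor megalin, was at 2622, 1881 and 614 in serum and 75.8, 94.5 and 23.5 in 2i, 26.4-fold lower (adjusted p = 0.0214). It did not pass without serum replicate 1 (0.0927) or 2 (0.0905) or 2i replicate 2 (0.0531) or 3 (0.104). Cubn, the gene of cubilin, which works with megalin, was at 141, 165 and 94.1 in serum and had 0 reads in all 2i libraries. It was at least 164-fold lower against 3 reads over the group (adjusted p = 0.00218), and at least 102-fold and 99.5-fold lower without 2i replicate 1 and 2.

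Of the 15 largest falls, 10 were listed genes of the 2-cell stage, a programme that rare cells in serum cultures are known to switch on. Of 35 listed 2-cell-stage genes 26 were in the table and 25 were tested. Of these 25, 16 were lower and 0 higher, with a median of -2.48, and 21 did not overlap, all lower in 2i. Over all 14487 tested genes 1.88% were lower, and 1858 did not overlap and were lower. Zscan4c was at 753, 3826 and 1241 normalised reads in serum and 34.7, 7.59 and 0 in 2i, 138-fold lower with a log2 difference of -5.33 ± 0.87 (adjusted p = 0.0039). Zscan4d was at 632, 3563 and 774 and at 18.1, 4.14 and 3.52, 193-fold lower (adjusted p = 0.004). Gm5662 was at 2089, 11550 and 4555 and at 136, 61.4 and 31.7, 79.2-fold lower (adjusted p = 0.00142). In each case serum replicate 2 was the highest library by far and 2i replicate 1 the highest of its group. Without serum replicate 2 the folds were 70.8 for Zscan4c, 82.0 for Zscan4d and 43.4 for Gm5662, and without 2i replicate 1 they were 512, 432 and 130. Without 2i replicate 3 that of Zscan4c was 91.8. These 3 genes passed in all 6 fits without 1 control library, and the count in the list was 12 to 16. With voom on whole reads 7 of the 25 were lower, and the 5 Zscan4 genes of the list had adjusted p-values of 0.0591 to 0.0974. With replicate 2 of both media left out 0 passed by limma. The other 5 of the 15 largest falls were Zscan4-ps2, Gm4340, Gm8766, Eras and Lrp2. Dub1, a deubiquitinase gene of the same stage, was at 66.2, 118 and 167 and at 3.61, 1.38 and 0 (adjusted p = 0.00774).

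The Zscan4 genes are related copies on chromosome 7, and how the authors assigned reads that map to several places is not given in the sources used here, so the value of any single copy is uncertain. The windows from 250 bases before to 50 after the RefSeq start of Zscan4b and Zscan4f are printed as the most alike of the 6 pairs that 4 of these genes form. They are chr7:10905001-10905300 on the minus strand and chr7:11397665-11397964 on the plus strand of GRCm38.p6, both 5′ to 3′ on the strand of the gene. They share 287 of 300 bases, and capitals mark the 13 that differ. The other 5 pairs, among Zscan4b, Zscan4c, Zscan4d and Zscan4f, shared 70 to 73 of 300 bases, compared position by position without gaps.
Zscan4b: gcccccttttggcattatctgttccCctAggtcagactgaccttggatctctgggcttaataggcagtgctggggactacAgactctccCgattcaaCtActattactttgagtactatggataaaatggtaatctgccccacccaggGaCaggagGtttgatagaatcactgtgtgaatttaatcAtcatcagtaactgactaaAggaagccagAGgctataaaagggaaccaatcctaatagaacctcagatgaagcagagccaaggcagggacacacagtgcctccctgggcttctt
Zscan4f: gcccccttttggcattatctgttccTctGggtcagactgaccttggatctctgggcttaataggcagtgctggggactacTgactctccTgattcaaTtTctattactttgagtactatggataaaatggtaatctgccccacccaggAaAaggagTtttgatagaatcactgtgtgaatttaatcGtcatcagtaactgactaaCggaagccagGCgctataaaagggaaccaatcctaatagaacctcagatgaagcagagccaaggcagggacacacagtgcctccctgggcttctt
Zscan4b was at 449, 1833 and 689 in serum and 13.7, 0 and 0 in 2i, and Zscan4f at 797, 4191 and 1176 and at 32.5, 2.76 and 0, with log2 differences of -4.95 ± 0.73 (adjusted p = 0.00227) and -5.49 ± 0.87 (adjusted p = 0.00366). Both were highest in serum replicate 2 and, within 2i, in replicate 1.

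Among 51 germline genes 4 were lower and 0 higher, with a median of -0.04. Mael, a gene of the piRNA pathway, which silences transposons in germ cells, was at 430, 428 and 886 in serum and 28.2, 15.9 and 22.3 in 2i, 26.3-fold lower with a log2 difference of -3.37 ± 0.52 (adjusted p = 0.00279). Ddx4, the germ cell helicase gene Vasa, was at 253, 343 and 314 and at 69.3, 38.6 and 16.4, 7.32-fold lower (adjusted p = 0.00498), and 11-fold lower without 2i replicate 1. Mael and Ddx4 passed whichever library was left out. Tdrd1, another piRNA pathway gene, was 11.3-fold lower (adjusted p = 0.0268) and passed only when 2i replicate 1 was the library left out, where the fold was 26.5, while it was 7.54 without 2i replicate 3. Meioc, listed as Gm1564 and needed for meiosis, was 3.47-fold lower (adjusted p = 0.0249) and passed only when 2i replicate 3 was the library left out.

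Of 42 imprinted genes 1 was higher and 2 lower. Cdkn1c, the gene of the cell cycle inhibitor p57, was at 725, 999 and 382 in serum and 52.0, 20.7 and 17.6 in 2i, 23.3-fold lower with a log2 difference of -3.44 ± 0.50 (adjusted p = 0.00224), and 36.7-fold lower without 2i replicate 1. Its neighbour Phlda2 was 4.72-fold lower (adjusted p = 0.0163), at 186, 317 and 188 and at 88.8, 28.3 and 29.3, and 8.0-fold lower without 2i replicate 1. It did not pass without serum replicate 2 (0.0893) or 2i replicate 2 (0.0765) or 3 (0.0871). Of 25 p53 targets 0 were higher and 2 lower. Pmaip1, which encodes the cell death protein NOXA, was at 754, 824 and 668 and at 43.3, 24.1 and 37.6, 21.4-fold lower with a log2 difference of -3.47 ± 0.35 (adjusted p = 0.00022), and its libraries were tight in both media. Of 27 interferon response and double-stranded RNA sensing genes 3 were higher and 0 lower. Xaf1, an interferon-induced gene linked to cell death, went from 153, 207 and 299 to 1232, 691 and 1192, 4.72-fold higher (adjusted p = 0.00577). Cdkn1c, Pmaip1 and Xaf1 passed whichever library was left out. The other 2 of the interferon list did not: Oas1a, an RNA sensor, was 4.28-fold higher (adjusted p = 0.0296, up to 0.136 with 1 library left out, and passing only without 2i replicate 2), and B2m, the light chain of MHC class I, 3.58-fold higher (adjusted p = 0.0249, up to 0.118, and passing only without serum replicate 3, where the fold was 5.75).

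Several gene groups showed 0 calls in either direction by limma. These were the lists of retroelement silencing and H3K9 methylation (28 genes tested, median -0.17), trophoblast (12, -0.40), serum response factors SRF and YAP (27, -0.35), LIF and STAT3 (17, 0.07), glycolysis (24, 0.25), serine, glycine and one-carbon metabolism (21, 0.07), the Myc network (22, -0.02), stress and unfolded protein response (24, -0.07), cytosolic ribosomal proteins (62, 0.04) and replication-dependent histones (47, -0.58). The count with voom was 0 in all of them too, and in the fits without 1 control library it reached 1 for glycolysis, the Myc network and stress. With a replicate block it was 1 to 5 in these lists. In the histone list 45 of 47 differences were negative, and 7 genes did not overlap, all lower in 2i. Over all 14487 tested genes 1858 did not overlap and were lower. In the libraries with the shRNA against Setdb1 the median of the histone list was 0.02. Other lineage lists held 1 to 3 calls each. In the neural list Neurod1 was lower, at 318, 213 and 206 and at 30.3, 12.4 and 0 (17.3-fold, adjusted p = 0.00483, and 39.6-fold and 11.5-fold without 2i replicates 1 and 3), and Sox21 higher, at 48.9, 13.3 and 25.7 and at 150, 336 and 386 (9.92-fold, adjusted p = 0.00413, and 14.9-fold without serum replicate 1). In the endoderm list Cubn was lower and Fst higher, as given above, and Lamb1, a laminin chain gene, was 5.35-fold lower (adjusted p = 0.0204, up to 0.0974 without 2i replicate 3). In the fibroblast list Vim was higher, at 1853, 2161 and 705 and at 4771, 6300 and 5202 (3.45-fold, adjusted p = 0.0251, and 0.0502 to 0.0952 without any library but serum replicate 2). Of the other 5 defining fibroblast markers, Thy1 had 165 reads in serum and 59 in 2i, Col1a1 6 and 4, Col1a2 2 and 1, and Col3a1 and S100a4 0 in both.

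**Figure D2:**
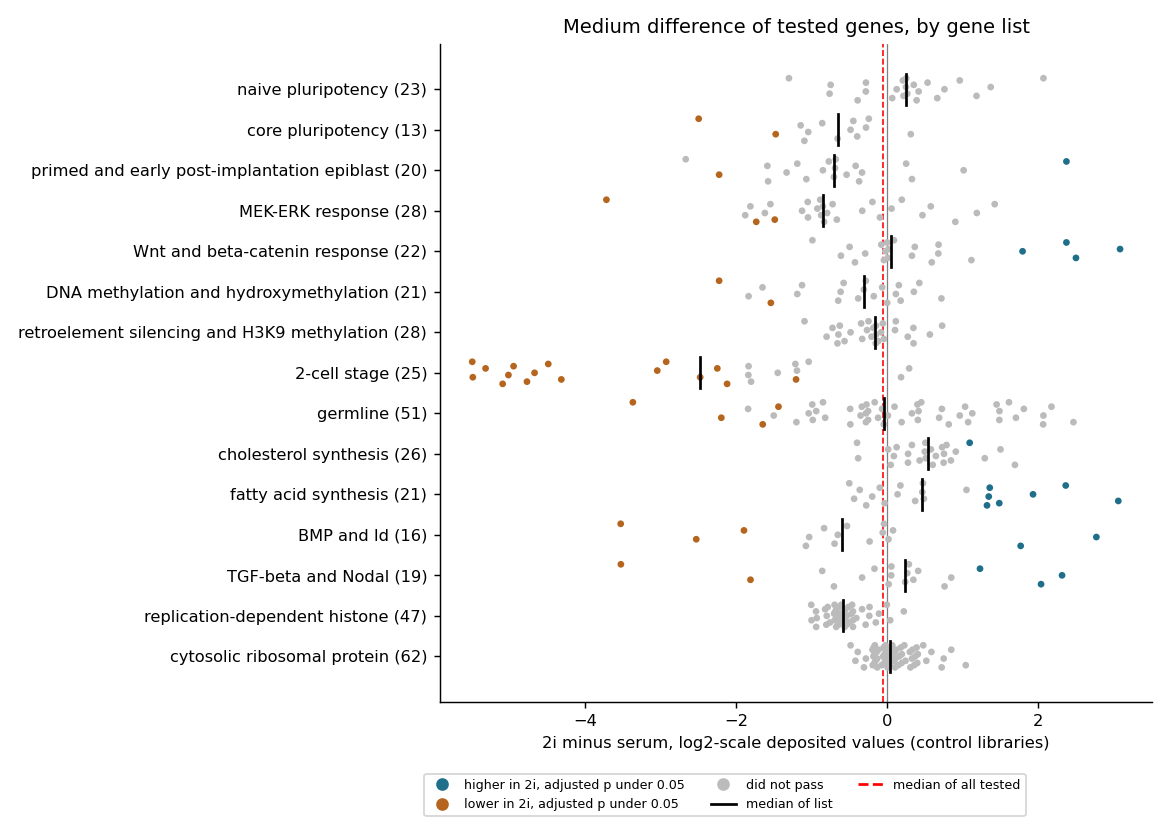
Difference between 2i and serum control libraries on the log2 scale of the deposited values, for the tested genes of 15 lists (number tested in brackets). Blue points are genes higher and brown points genes lower in 2i at an adjusted p under 0.05, grey points did not pass, black bars are list medians and the dashed line is the median of all tested genes (-0.05). The 2-cell-stage list lies farthest to the left, with 16 of 25 genes lower and a median of -2.48.

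In control cells, repeat transcripts other than structural RNA and tRNA were a smaller part of the reads in 2i. Repeat reads other than structural RNA and tRNA were 37.4, 35.0 and 45.0 per 100 gene reads in serum replicates 1 to 3 and 19.3, 18.6 and 27.3 in 2i. The means were 39.1 ± 5.25 (SD, n = 3) and 21.8 ± 4.82 (n = 3), 1.80-fold lower in 2i. The media did not overlap, and the exact two-sided permutation p was 0.1, the smallest that 3 libraries against 3 can give. The deposited repeat values carry this difference, because their size factors follow the combined gene and repeat reads. The median difference over all 1097 repeat families tested was accordingly -0.52 on the log2 scale, and -0.11 once each library was centred on its median. Structural RNA and tRNA reads overlapped between the media, at means of 230 in serum and 236 in 2i per 1000 gene reads. By this ratio to gene reads, the fall of the other repeats was not seen in the libraries with the shRNA against Setdb1. Their means there were 38.9 in serum and 40.8 in 2i per 100 gene reads, and this difference was not tested. The highest value there, 47.3, was that of 2i replicate 3, which had 4821181 gene reads. IAP reads there went from 5.85 to 24.6 per 1000 gene reads. The median difference over all families was still below 0 in these libraries, at -0.29.

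**Figure D3:**
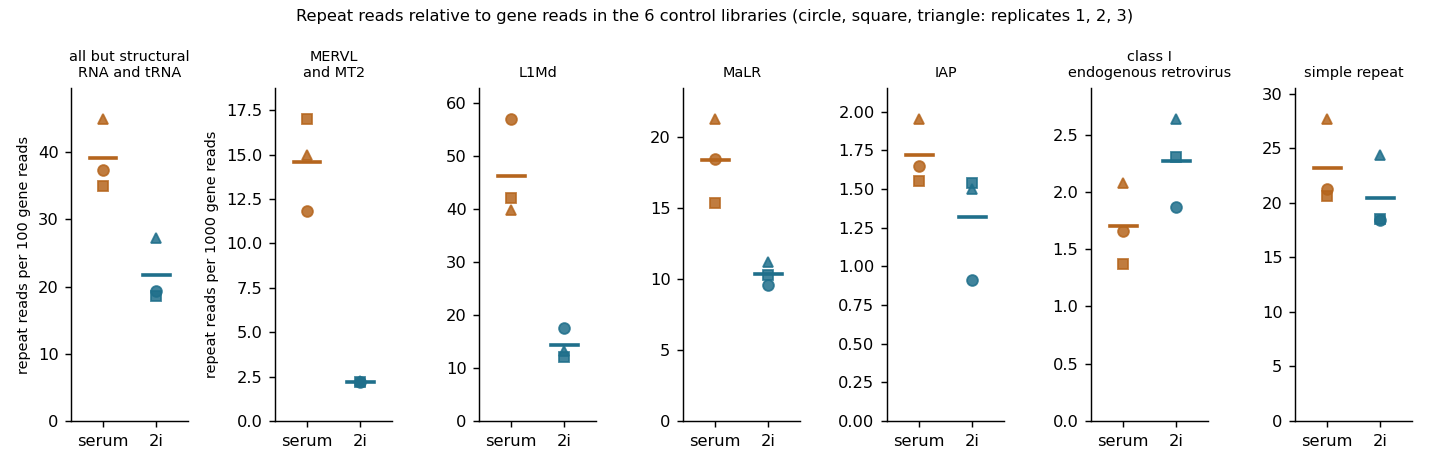
Repeat reads relative to gene reads in the 6 control libraries, for all families but structural RNA and tRNA (per 100 gene reads, first panel) and for 6 family lists (per 1000 gene reads, each panel with its own axis from 0). Points are libraries and bars are means of 3. Repeats other than structural RNA and tRNA fell from 39.1 to 21.8 per 100 gene reads. MERVL and MT2 fell from 14.6 to 2.21 per 1000, while the class I list overlaps between the media.

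By limma 188 of the 1097 families (17.1%) passed, 6 higher (0.547%) and 182 lower (16.6%), and 456 (41.6%) did not overlap between media. With the library medians centred, 64 passed, 18 higher (1.64%) and 46 lower (4.19%), and the direction of most families is relative to the general fall. With quantile scaling 18 were higher and 16 lower. With structural RNA left out, size factors recomputed and voom on whole reads, 37 were higher and 14 lower, and 19 of the 188 were among these. The calls also leaned on single libraries. The count was 5 without serum replicate 3, 6 without serum replicate 1, 9 without 2i replicate 1 and 16 without 2i replicate 3, against 250 and 193 without replicate 2 of serum or of 2i. With replicate 3 of both media left out, 0 families passed, although 226 had an unadjusted p under 0.05. Only 4 families passed in all 6 fits without 1 control library, and these were MERVL-int, MT2_Mm, MT2C_Mm and ORR1A3-int, chosen for naming after their values were seen.

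MERVL, an endogenous retrovirus whose long terminal repeat MT2 acts as a promoter at the 2-cell stage, showed the largest fall of any family. MERVL-int, its internal part, was at 91520, 134100 and 93600 normalised reads in serum and at 6636, 5193 and 2285 in 2i, 22.6-fold lower with a log2 difference of -4.60 ± 0.66 (adjusted p = 0.00349). MT2_Mm, its long terminal repeat, was at 20250, 44110 and 20390 and at 2810, 2445 and 1673, 12.2-fold lower (adjusted p = 0.00541). With centred medians the differences were -4.20 (adjusted p = 0.00667) and -3.12 (0.0132). MT2C_Mm, an older relative, was at 2165, 2617 and 2040 and at 794, 843 and 727, 2.89-fold lower (adjusted p = 0.00963). Of 7 families in the MERVL and MT2 list 5 were lower, 3 with centred medians, and all 7 lay below 0. Reads of the list were 11.8, 17 and 14.9 per 1000 gene reads in serum and 2.18, 2.21 and 2.23 in 2i, 6.62-fold lower on average. As for the Zscan4 genes, serum replicate 2 was the highest library for MERVL-int and MT2_Mm. ORR1A3-int, a family of the mammalian LTR retrotransposons (MaLR), was also highest in serum replicate 2, at 4350, 8657 and 4842 and at 912, 993 and 725, 6.79-fold lower (adjusted p = 0.00541).

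L1 elements are retrotransposons without long terminal repeats, and members of the young L1Md families can still move in the mouse. Of 6 young L1Md families 3 were lower, with a list median of -1.41, against -1.0 and 0 calls with centred medians. L1Md_A was at 280100, 216900 and 160300 in serum and 87360, 53450 and 31430 in 2i, 3.82-fold lower with a log2 difference of -2.02 ± 0.62 (adjusted p = 0.0379). Leaving out any 1 control library took its adjusted p to 0.0625 to 0.138. L1Md_T did not overlap, at 143900 to 319100 and 53350 to 118900 (2.76-fold lower, adjusted p = 0.114), and L1Md_F3 did, at 19850 to 32510 and 9454 to 33430 (adjusted p = 0.225). L1Md reads were 39.8 to 57.1 per 1000 gene reads in serum and 12.2 to 17.5 in 2i, 3.25-fold lower without overlap (exact two-sided permutation p = 0.1, the smallest possible). Of 28 other rodent L1 families 17 were lower (8 with centred medians), and of 73 ancient L1 families 30 (13 with centred medians), with medians of -0.97 and -0.85. L1_Mur1 and Lx5, the families with the most reads among the other rodent L1, overlapped (adjusted p = 0.513 and 0.838). Of 94 MaLR families 36 were lower, 8 with centred medians. Of 134 DNA transposon families 25 were lower, and 1 higher and 4 lower with centred medians. Over all 1097 families 16.6% were lower, and 4.19% with centred medians. Without serum replicate 1 or 3, the counts in the L1Md, other rodent L1, ancient L1 and DNA transposon lists were 0, and that of MaLR was 1.

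The lists of endogenous retroviruses known as targets of SETDB1 held calls between media in control cells for 3 of 16 IAP families. Of the MMERVK10C and RLTR10 list 1 of 9 passed, and of the ETn and MusD list 0 of 5. Over all families 17.1% passed. IAPEz-int, the internal part of the intracisternal A particle, was at 14210, 13450 and 12520 in serum and 9032, 14830 and 9789 in 2i, which overlap (adjusted p = 0.517). Its log2 difference was -0.29, and 0.12 with centred medians. ETn and MusD reads together went from 19.2 ± 4.35 (SD, n = 3) to 9.03 ± 3.56 per 1000 gene reads, without overlap (exact two-sided permutation p = 0.1, the smallest possible). MMETn-int, the family with the most reads in the ETn and MusD list, overlapped at 97250 to 191700 and 30290 to 107000 (adjusted p = 0.177). MMERVK10C-int was at 4213, 4576 and 3875 and at 1457, 1757 and 1468, 2.71-fold lower with an adjusted p of 0.0468, which was 0.0627 to 0.136 in the 6 fits without 1 library. Of 16 IAP families 1 was higher and 2 lower, and 0 in either direction with centred medians, and the list median was -0.32, turning to 0.09 with centred medians. The medians of the simple repeat and the structural RNA lists also turned, from -0.28 to 0.13 and from -0.18 to 0.23. No SINE family of 27 passed by limma, and 2 passed with voom. All 27 lay below 0, with a median of -0.61 (-0.20 with centred medians), and 22 did not overlap. Over all 1097 families 429 did not overlap and were lower. SINE reads went from 167 ± 38.3 (SD, n = 3) to 88.2 ± 40.4 per 1000 gene reads, without overlap (exact two-sided permutation p = 0.1, the smallest possible). B2_Mm1a, the SINE family with the most reads, was at 305200, 561300 and 442500 and at 171500, 136500 and 366900, which overlap (adjusted p = 0.177).

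Against the general fall, 6 families were higher in 2i. RLTR1B-int, of the class I (gammaretrovirus-like) group, was at 5690, 4341 and 4173 in serum and 16740, 19500 and 15550 in 2i, 3.65-fold higher with a log2 difference of 1.87 ± 0.36 (adjusted p = 0.0124, and 0.0845 without serum replicate 3). IAPEY_LTR was at 130, 140 and 156 and at 271, 418 and 868, 3.65-fold higher (adjusted p = 0.0439, and 0.0604 to 0.164 in the fits without 1 library), and 2.43-fold higher without 2i replicate 3. RLTR13B2 went from 446, 342 and 432 to 931, 667 and 1001, 2.13-fold higher (adjusted p = 0.0278), and AluF_3 from 275, 231 and 182 to 408, 467 and 460, 1.94-fold higher (adjusted p = 0.0303). The other 2 were the simple repeats (TTGGGG)n and (ATG)n, 2.65-fold and 2.03-fold higher (adjusted p = 0.0164 and 0.0379). Each of these last 4 failed without serum replicate 1 (0.0817 to 0.179), serum replicate 3 (0.0845 to 0.13), 2i replicate 1 (0.0746 to 0.13) and 2i replicate 3 (0.0653 to 0.107), RLTR13B2 also without serum replicate 2 (0.0546) and AluF_3 also without 2i replicate 2 (0.0599). The class I list took 0.443, 0.393 and 0.461% of repeat reads other than structural RNA in serum and 0.967, 1.24 and 0.968% in 2i. Those repeat reads were themselves fewer in 2i. Per 1000 gene reads the list overlapped, at means of 1.70 and 2.27 (exact two-sided permutation p = 0.2). Its summed normalised reads were 20720, 17010 and 20730 in serum and 26260, 32390 and 28220 in 2i. These sums include the RLTR1B-int reads given above. Of the 24 families of the class I list 1 was higher and 3 lower, and 2 higher and 1 lower with centred medians. MuLV-int, of the same group, was 3.80-fold lower, at 138, 149 and 195 and at 33.6, 70.5 and 22.6 (adjusted p = 0.0133). It was 5.71-fold lower without 2i replicate 2, and it did not pass without serum replicate 1 (0.0589) or 3 (0.0845) or 2i replicate 1 (0.0681) or 3 (0.055).

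**Figure D4:**
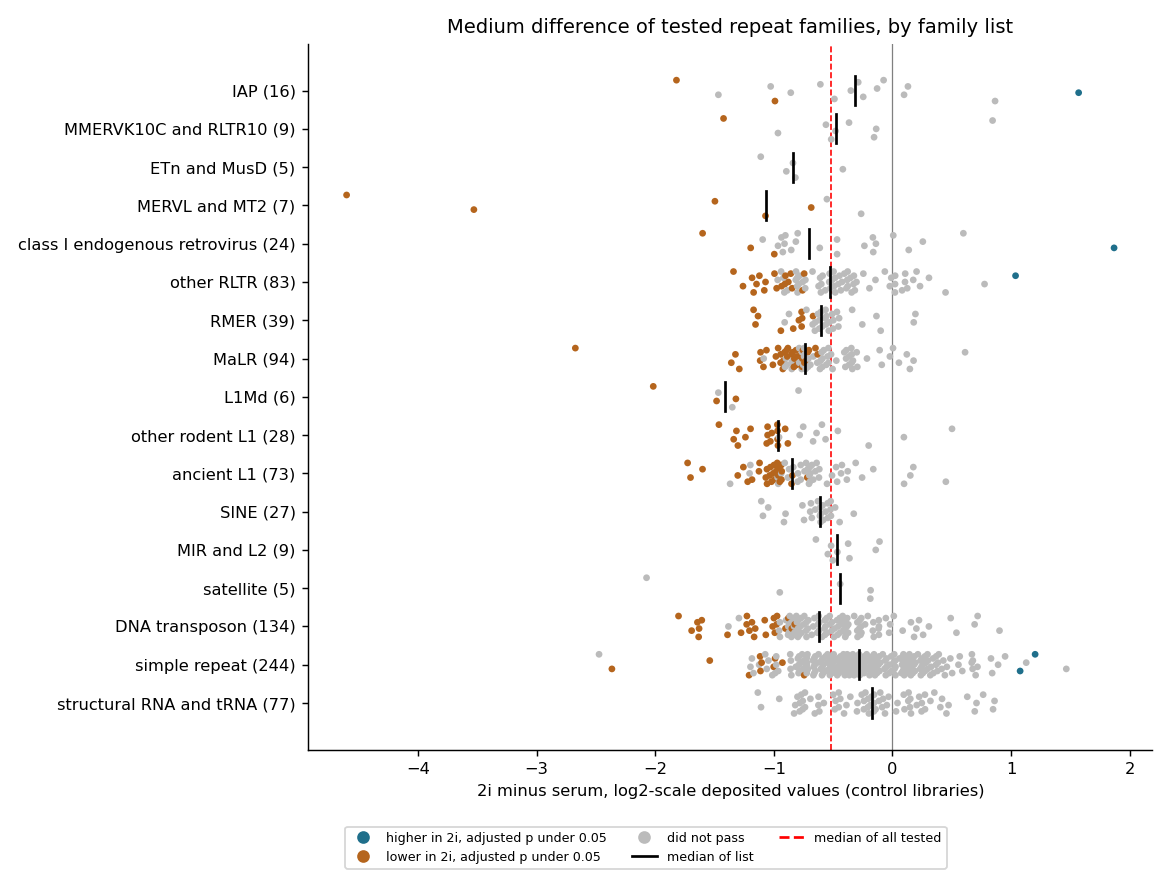
Difference between 2i and serum control libraries on the log2 scale of the deposited values, for the tested repeat families of 17 lists (number tested in brackets). Colours and bars are as for the gene lists, and the dashed line is the median of all families (-0.52). MERVL-int (-4.60) and MT2_Mm (-3.53) lie far from the rest of the families, most of which lie near or left of the dashed line.

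The libraries with the shRNA against Setdb1 give the same contrast of media in other samples, with the filter and the estimate of spread shared. There 543 genes passed, 311 higher and 232 lower in 2i, and 219 without 2i replicate 3 of these libraries, 150 higher and 69 lower. Of the control calls 126 were also higher and 91 also lower there, and 0 were called in opposite directions. Of the 524 genes, 522 (99.6%) had the same sign, against 70.7% of all tested genes. Trpm1 differed by 5.39 in these libraries (adjusted p = 0.000102), Dmgdh by 3.78 (0.000102), Pmaip1 by -2.92 (0.000963) and Spry4 by -4.00 (0.00639). Dusp6, Dusp4 and Etv4 passed there, with differences of -3.04, -3.09 and -3.21 (adjusted p = 0.011, 0.00377 and 0.0013), as did the naive genes Tcfcp2l1 at 1.85 (0.0363) and Prdm14 at 1.47 (0.022). Axin2 differed by 1.43 (adjusted p = 0.0812), T by 0.54 (0.564) and Gm5662 by -1.16 (0.437). No gene passed the limma test of the difference between the 2 contrasts, with 404 at an unadjusted p under 0.05, so a call in one contrast and not in the other is not a shown difference.

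**Figure D5:**
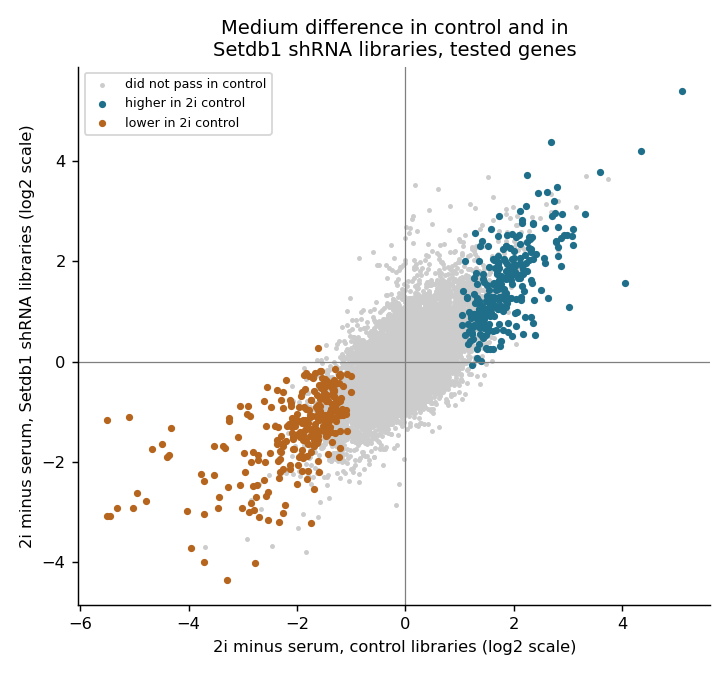
Difference between 2i and serum in the control libraries (horizontal) and in the libraries with the shRNA against Setdb1 (vertical), both on the log2 scale, with 1 point for each of the 14487 tested genes. Blue and brown points are the 251 genes higher and 273 lower in 2i control libraries, of which 522 have the same sign on both axes.

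For repeat families the contrast in those libraries held 6 calls, all higher in 2i, and 176 of the 188 control calls had the same sign (93.6%, against 72.3% of all families). MERVL-int differed by -1.55 (adjusted p = 0.403) and MT2_Mm by -1.40 (0.403), against -4.60 and -3.53 in control cells. The test of the difference between the 2 contrasts gave adjusted p-values of 0.445 and 0.49 for them. It was passed by 2 families, IAPEz-int and IAPLTR1_Mm, which did not pass the test between media in control cells but were higher in 2i among the libraries with the shRNA against Setdb1.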

How the data were processed

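RNA was measured by directional, ribosomal RNA-depleted RNA-seq in 12 libraries, 3 for each of 2 media and 2 shRNAs. Trimming was done with Trim Galore 0.3.3, alignment with TopHat2 2.0.9 and normalisation with DESeq2 on mm9, per the submitters' processing notes. The counter, the use of strand and the handling of multimapping reads were not given in the sources used here. The authors deposited log2-scale variance-stabilised values for 26061 genes and 1217 repeat families. Inverting that scale gave whole reads for 100% of values (tolerance 0.01), and normalised reads and folds come from them. The gene table follows median-of-ratios size factors, while those of the repeat table follow combined gene and repeat reads.

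Features with a mean at least 0.5 above the lowest value were kept (14487 genes and 1097 families). They were fitted with limma 3.58.1 in R 4.3.3 over all 4 groups (8 residual degrees of freedom, mean-variance trend), with Benjamini-Hochberg adjustment over the whole table and a threshold of 0.05. Log2 differences understate the change of low genes. The fit was tested on simulated data with independent noise for each feature and library. That test therefore does not cover effects shared by the features of a library. A fold against a group with 0 reads is a bound against 3 reads over the group. Values after ± are standard errors of the limma fit (SE) or standard deviations of 3 libraries (SD), and both come from the spread between libraries. The floor of 3 reads covers counting error only.

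Named genes were the 15 largest changes in each direction that passed without overlap, and members of gene lists; 1 of these genes is not reported here. Members and lists were chosen with earlier results of these data known. Alternatives were another filter, centring, quantile scaling, no trend, voom on whole reads, a fit on the control libraries alone, a replicate block and leaving out libraries. Promoter windows came from RefSeq on GRCm38.p6, matched by symbol, since no mm9 genome was used here.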

Additional observations from a re-analysis of the deposited data

Results flagged for a closer look

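The difference between media differed between control libraries and libraries with the shRNA against Setdb1 for 2 repeat families, by limma's test of the interaction. IAPEz-int was at 14210, 13450 and 12520 normalised reads in serum and 9032, 14830 and 9789 in 2i in control libraries, and at 38120, 39600 and 72960 in serum and 183600, 175700 and 215100 in 2i in the libraries with the shRNA against Setdb1. The contrasts differed by 2.28 ± 0.44 on the log2 scale (adjusted p = 0.0488). This call was lost, at adjusted p-values of 0.0853 to 0.281, without any 1 serum control library, 2i control replicate 1 or 3, or 2i replicate 3 of the knockdown. IAPLTR1_Mm, the long terminal repeat of the same group, was at 1126, 999 and 1078 and at 807, 1231 and 722 in control libraries, and at 2364, 2516 and 4179 and at 11700, 11330 and 16030 in the others. Its contrasts differed by 2.38 ± 0.38 (adjusted p = 0.011), and the call was lost without serum control replicate 1 (0.0611) or 3 (0.0509) or 2i control replicate 1 (0.0539).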

How the results depend on the processing

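The count of genes that differed between media in control cells, 524, was 1351 with a replicate block, 143 with no filter, 325 with a stricter filter and 144 without replicate 3 of both media. It was 171 to 466 with 1 control library left out. Added after seeing the data, it was 19 without replicate 2 of both media and 151 without replicate 1, and 672 without 2i knockdown replicate 3. The 188 repeat families, 6 higher and 182 lower, became 64 with centred medians (18 higher, 46 lower) and 34 with quantile scaling (18 higher, 16 lower). With structural RNA left out they became 51 (37 higher, 14 lower), and 116 without the trend. On the 6 control libraries alone they became 236, with 181 of the 188 among these. They became 0 without replicate 3 and 4 without replicate 1 of both media (added), and 5 to 250 with 1 control library left out. In the knockdown libraries the 543 genes became 1583 with the block and 219 without 2i replicate 3 (added), and the 6 families became 36 with the block. The 2 families of the interaction became 6 with the block, 1 without 2i knockdown replicate 3 (added), and 0 to 2 with 1 control library left out. The labels do not say whether libraries with the same replicate number belong together. For genes, the deviations from the group mean correlated at 0.232, -0.177 and 0.219 between same-numbered serum and 2i control libraries. Between differently numbered ones they correlated at -0.331 to 0.195. Structural RNA and tRNA took their largest share of repeat reads in replicate 3 of every group. That share was 48.3% in serum control, 64.6% in 2i control, 42.6% in serum knockdown and 69.5% in 2i knockdown. Whether the replicate number marks a batch was not tested. All 524 genes passed with the block and 345 with voom. With the block 4 naive genes, 4 of LIF and STAT3, 4 of glycolysis, 5 of stress, 3 histone genes and 11 SINE families passed. The 254 named genes gave 4787 values over 19 alternatives, and the 72 named families 1433 over 20. Only the 91 genes and 43 families called in the main fit had a call to lose. That call was lost in 480 values for genes and 364 for families. Of the called ones, 11 of 91 genes and 0 of 43 families kept it throughout. No called one changed sign, while some that did not pass did, such as IAPEz-int, from -0.29 to 0.12 with centred medians.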
